A study of Mus musculus with 21 samples.

Results

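Endothelial cells line the brain's blood vessels, and mural cells, the pericytes and smooth muscle cells, wrap around them. The 10 genes described here are standard markers of these cells: Cldn5, Flt1, Pecam1 and Angpt2 for endothelial cells, Pdgfrb, Rgs5 and Vtn for pericytes, and Acta2, Tagln and Myh11 for smooth muscle cells. They were chosen by name, and all 10 were found among the 54532 gene symbols listed in each of the 2 deposited tables of RNA sequencing of primary mouse brain microglia. The aging table held aged mice labelled Trem1-/-, aged wild type, young mice labelled Trem1-/- and young wild type. The other table, called the 5XFAD table below, held adult 5XFAD mice labelled Trem1+/-, adult 5XFAD mice and adult wild type mice. Each group had n = 3 libraries, and whether these were separate animals was not stated in the labels, so p-values reflect only the spread between these samples. 5XFAD mice carry transgenes driven by the neuronal Thy1 promoter and develop amyloid plaques. Trem1 encodes a receptor of neutrophils and monocytes that amplifies inflammation. Ages were given only as young, adult and aged, and neither the way in which Trem1 was deleted nor how the microglia were isolated was stated.

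The tight vessel wall of the brain depends on exchange between these cells. Endothelial cells seal their junctions with claudin-5, the product of Cldn5, and sense VEGF through receptors that include Flt1. They release PDGF-B, which holds pericytes on the vessel through the receptor Pdgfrb, while Angpt2 opposes the stabilising angiopoietin signal to the receptor Tek. Smooth muscle cells of arterioles contract with the help of Acta2, Tagln and Myh11. Not all of these markers are confined to vessels: Pecam1 is also carried by platelets and leukocytes, and Flt1 by monocytes and macrophages.

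Depth, as reads assigned to genes, was 8600878 to 19411434 per library for aging and 9264999 to 18698707 per library for the 5XFAD samples. Values below are normalized counts, that is, reads divided by a library size factor, and the tables were scaled separately, so that levels are compared only within a table. A count of 0 allows a level of up to 3 reads, or 2.06 to 4.51 normalized counts for the aging libraries and 2.26 to 4.36 for those of the 5XFAD table. This floor covers counting error only. The microglial marker P2ry12 lay between 24750 and 41330 normalized counts in the aging libraries and between 22251 and 52544 in the 5XFAD libraries. Trem1 itself went against its labels in young mice, where every library labelled Trem1-/- was above every wild type library. In aged mice it averaged 164 in the libraries labelled Trem1-/- and 231 in wild type, with overlapping libraries, and in adult mice all groups overlapped. It had 124, 124 and 244 normalized counts in the aged libraries labelled Trem1-/-, against 269, 188 and 237 in aged wild type, and 89.4, 99.8 and 89.5 in the young libraries labelled Trem1-/-, against 25.2, 7.65 and 8.74 in young wild type. In adult mice Trem1 had 25.1, 18.1 and 38.3 in the 5XFAD libraries labelled Trem1+/-, 13.7, 32.0 and 36.8 in 5XFAD and 62.7, 0 and 30.2 in wild type. The sources used here do not state which region of Trem1 was deleted, so reads from outside that region may be among these values. The libraries are therefore named by their label throughout. The first replicates of both 5XFAD groups stood apart in markers of the choroid plexus, with summed levels of 104313 in the Trem1+/- group and 82704 in the 5XFAD group, against at most 31196 in the other 5XFAD libraries of either group and at most 6646 in wild type.

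The 10 genes were low in most libraries and spread widely in level. Per kilobase of merged exon, Pecam1 had the highest mean in both tables, with 87.9 normalized counts for aging and 155 for the 5XFAD samples. In the aging table it was followed by Acta2 at 27.4, Angpt2 at 15.1 and Vtn at 13.5 normalized counts per kilobase. In the 5XFAD table it was followed by Angpt2 at 24.7, Flt1 at 24.6 and Vtn at 14.2 normalized counts per kilobase. Cldn5 ranked last of the 10 in the aging table, at 0.505 normalized counts per kilobase, with at most 3 reads in 11 of 12 libraries. Rgs5 was at most 3 reads in 8 of 12 aging libraries and 4 of 9 libraries of the 5XFAD table, and Tagln in 7 of 12 and 8 of 9. In bulk samples such as these, fewer cells of a type and less RNA per cell cannot be told apart.

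**Figure D1:**
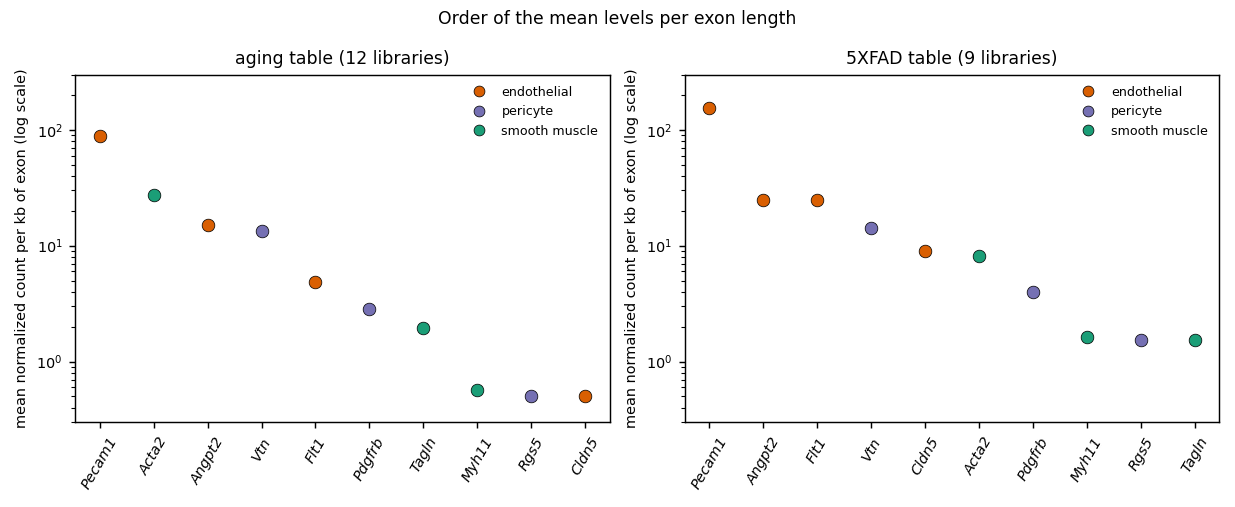
Mean level of each of the 10 genes over all libraries of a table, in normalized counts per kilobase of merged exon (log scale), ordered from high to low and coloured by cell type. Pecam1 leads in both tables at 87.9 and 155, and Cldn5, Rgs5 and Myh11 lie below 1 in the aging table.

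For the comparisons, a gene was tested when its mean over the table was at least 10 normalized counts. This kept 6 of the 10 in the aging table (Flt1, Pecam1, Angpt2, Pdgfrb, Vtn and Acta2) and 8 of the 10 in the 5XFAD table, where Cldn5 and Myh11 joined them. Each difference is that of 2 group means of log2(normalized count + 1), given ± its standard error from limma, and a gene was called at a Benjamini-Hochberg adjusted p under 0.05 over all genes tested. The added 1 shrinks changes of low genes, but a library with few or no reads can widen a difference of mean logs. For Vtn in aged against young wild type the log2 difference was 2.62 where the ratio of means was 2.72. For Acta2 in 5XFAD against wild type it was 1.27 where that ratio was 1.30.

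In aged wild type compared with young wild type 1 of 6 tested members was called, Acta2, which rose, against 8.67% of all 16086 genes tested. With so few members tested, this call is read as a value of Acta2 and not as a change of the 10 genes. In the aged libraries labelled Trem1-/- compared with young wild type, 2 of 6 were called, Acta2 higher and Pecam1 lower, against 6.67% of all genes. These comparisons share the young wild type libraries. None was called in the aged compared with the young libraries labelled Trem1-/-, against 1.71% of all genes, in the young libraries labelled Trem1-/- compared with young wild type (2.58%), or in the test of whether the age difference depended on the Trem1 label (2.54%). None was called either in the aged libraries labelled Trem1-/- compared with aged wild type, where limma called 0% of all genes, 1545 genes had an unadjusted p under 0.05, edgeR called 0 genes and DESeq2 called 30. The remaining 4 members were too low to be tested, and without the filter their adjusted p by limma was 0.511 or higher in every aging comparison.

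Among the endothelial genes, Pecam1, the adhesion molecule of endothelial junctions, gave the most even values. It had 404, 382 and 415 normalized counts in the aged libraries labelled Trem1-/-, 366, 564 and 528 in aged wild type, 502, 673 and 605 in the young libraries labelled Trem1-/-, and 700, 649 and 784 in young wild type. Every aged library labelled Trem1-/- was below every young library of either label, and the aged wild type libraries were all below the young wild type ones but overlapped with the young ones labelled Trem1-/-. Pecam1 averaged 400.5 ± 16.9 in the aged libraries labelled Trem1-/- and 711 ± 67.8 in young wild type (SD, n = 3 each), and fell by 0.82 ± 0.19 on the log2 scale (limma, adjusted p = 0.00726). Over the alternatives its adjusted p ran between 0.000846 and 0.0558, the last without limma's trend and robust options. In aged wild type it averaged 486 ± 106, against the same 711 ± 67.8 in young wild type, a log2 difference of -0.57 ± 0.19 that missed the threshold (limma, adjusted p = 0.0595). Leaving out the second aged wild type library gave -0.69 with an adjusted p of 0.0318, and leaving out the first gave -0.38 with 0.308. It was also called by DESeq2 (adjusted p = 0.0461) and by limma with only genes at a mean of at least 50 tested (adjusted p = 0.0487). In the aged compared with the young libraries labelled Trem1-/- the log2 difference of -0.56 ± 0.19 also did not pass (limma, adjusted p = 0.129), and no dependence of the age difference on the label was detected (difference of differences 0.01 ± 0.26 on the log2 scale, limma, adjusted p = 0.991), a value whose sign turned under the count models. The summed level of the 12 microglial markers moved the same way, at 340726 to 382457 in the aged libraries labelled Trem1-/-, 375204 to 405699 in aged wild type, 454449 to 476788 in the young libraries labelled Trem1-/- and 470156 to 527436 in young wild type, with 10 of 12 markers lower by limma in the first against the last of these groups. In that comparison 6.67% of all genes were called. The part of the microglial sum in the Pecam1 result was not tested.

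Flt1, the VEGF receptor 1 that binds VEGF-A and placental growth factor, had 74.7, 38.6 and 117 normalized counts in the aged libraries labelled Trem1-/-, 101, 114 and 72.3 in aged wild type, 45.1, 32.0 and 79.0 in the young libraries labelled Trem1-/- and 35.5, 17.5 and 55.9 in young wild type. The aged and young wild type groups did not overlap, while both groups labelled Trem1-/- overlapped with each other. The log2 difference between aged and young wild type was 1.5 ± 0.54 and did not pass (limma, adjusted p = 0.0942), nor did it under any alternative (adjusted p 0.0598 to 0.346). In the aged against the young libraries labelled Trem1-/- it was 0.51 ± 0.54 (limma, adjusted p = 0.707).

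Angpt2, the angiopoietin that endothelial cells store and release on activation, was lowest in aged wild type. It had 86.8, 117 and 79.7 normalized counts in the aged libraries labelled Trem1-/-, against 7.78, 24.7 and 20.1 in aged wild type. The young libraries labelled Trem1-/- had 57.9, 89.1 and 53.7, against 64.4, 35.0 and 30.6 in young wild type. The aged wild type libraries were below every other library of the table, and the group labelled aged Trem1-/- overlapped only with the young one of the same label. The means were 94.5 ± 19.8 and 17.5 ± 8.74 in the aged groups labelled Trem1-/- and wild type (SD, n = 3 each). The log2 difference of 2.49 ± 0.55 had an unadjusted p of 0.000159 by limma, the 8th smallest of all genes tested, but an adjusted p of 0.292, which was also the smallest that any gene reached in that comparison. DESeq2 gave an adjusted p of 0.0111 and edgeR 0.318. Over the 6 fits that each left out 1 library the log2 difference stayed between 2.02 and 2.79 and was not called. In young mice the difference by label was 0.66 ± 0.55 on the log2 scale (limma, adjusted p = 0.752), and the test that the age difference depended on the label gave 1.83 ± 0.78 (limma, adjusted p = 0.249). Aged wild type compared with young wild type gave -1.32 ± 0.55 (limma, adjusted p = 0.154).

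Cldn5, the tight junction protein enriched in brain endothelium, was nearly undetected in the aging table. It had 4.67, 0 and 0 normalized counts in the aged libraries labelled Trem1-/-, 1.11, 0 and 0 in aged wild type, 0 in all 3 young libraries labelled Trem1-/-, and 2.80, 0 and 0 in young wild type. That is 9 reads in all over 12 libraries, so that any difference was below what this depth can show.

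**Figure D2:**
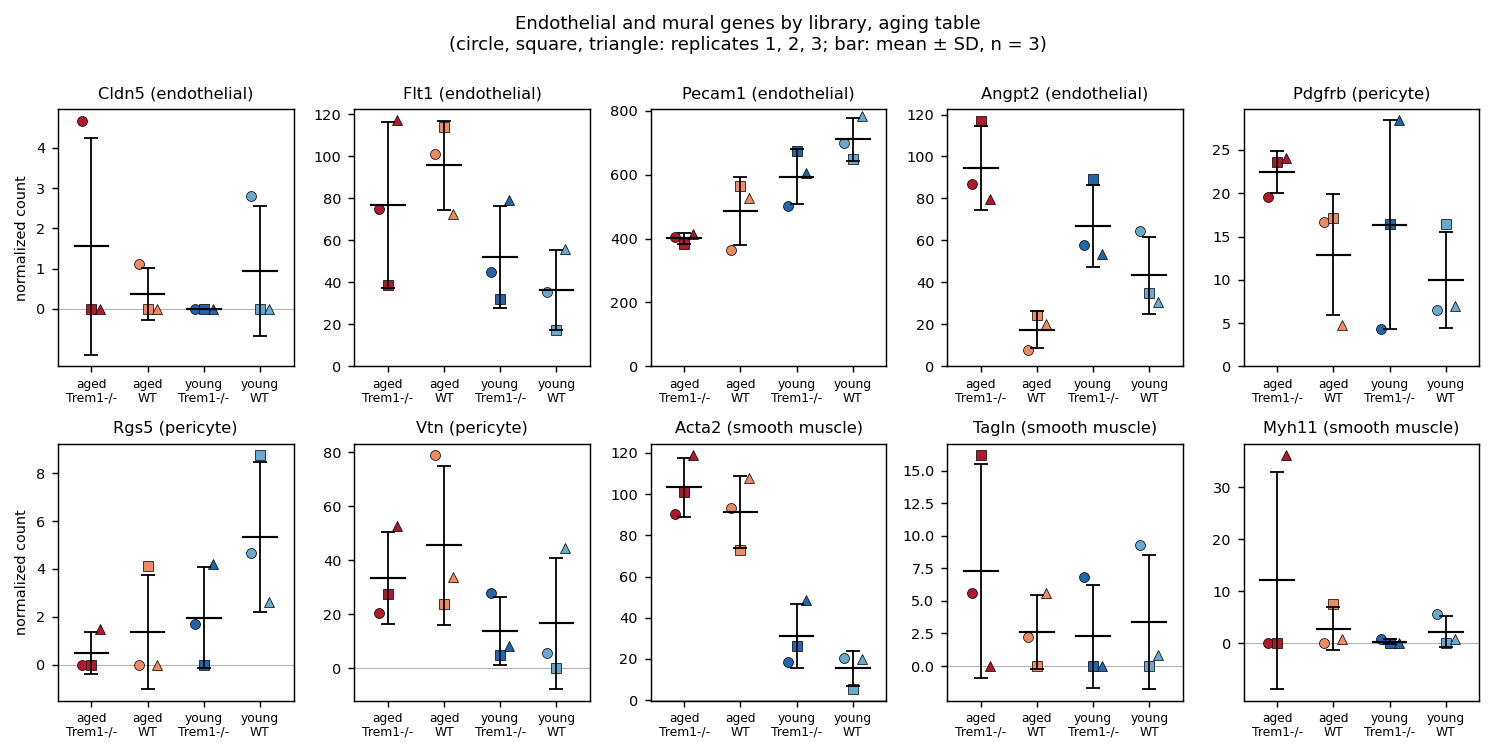
Normalized counts of the 10 genes in each library of the aging table, by group (symbols: replicates 1 to 3; bars: mean ± SD, n = 3). Acta2 lies between 72.7 and 119 in all 6 aged libraries and between 5.47 and 48.5 in the young ones, Pecam1 is highest in young wild type, and Angpt2 is lowest in aged wild type at 7.78 to 24.7.

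The pericyte genes varied widely within most groups. Vtn, which encodes the matrix protein vitronectin that brain pericytes secrete, had 20.5, 27.4 and 52.6 normalized counts in the aged libraries labelled Trem1-/-, 78.9, 24.0 and 33.7 in aged wild type, 28.1, 4.84 and 8.43 in the young libraries labelled Trem1-/- and 5.6, 0 and 44.6 in young wild type. Replicate 3 of young wild type lay within the aged range and kept the wild type groups from separating. The log2 difference between aged and young wild type was 2.62 ± 1.07 (limma, adjusted p = 0.143). Over the 6 fits that each left out 1 library it ran from 1.25 to 4.0, with adjusted p by limma between 0.0236 and 0.582. Only 1 of these fits called Vtn, the one without replicate 3 of young wild type (4.0, adjusted p = 0.0236), which leaves 5.6 and 0 in that group. Pdgfrb, the PDGF-B receptor on pericytes, had 19.6, 23.6 and 24.1 in the aged libraries labelled Trem1-/-, 16.7, 17.1 and 4.82 in aged wild type, 4.26, 16.5 and 28.4 in the young libraries labelled Trem1-/- and 6.53, 16.4 and 6.99 in young wild type. Its groups overlapped except that the aged group labelled Trem1-/- lay above both wild type groups, and no comparison had an adjusted p below 0.530 by limma. Rgs5, a regulator of G protein signalling enriched in pericytes, reached at most 8.75 normalized counts in any aging library, in young wild type, and was at 0 in 5 of 12.

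Acta2, the smooth muscle actin of arterioles that some pericytes also express, had 90.6, 101 and 119 normalized counts in the aged libraries labelled Trem1-/-, against 18.7, 26.1 and 48.5 in the young libraries with that label. In wild type it had 93.3, 72.7 and 108 in aged mice, against 20.5, 5.47 and 20.1 in young mice. All 6 aged libraries were above all 6 young libraries, while groups of the same age overlapped. Acta2 averaged 91.2 ± 17.6 in aged and 15.4 ± 8.57 in young wild type (SD, n = 3 each) and rose by 2.67 ± 0.58 on the log2 scale (limma, adjusted p = 0.00390). It stayed called under all 15 alternatives, with adjusted p between 7.84e-05 and 0.0323. The aged libraries labelled Trem1-/- averaged 103 ± 14.3, a rise of 2.86 ± 0.58 relative to young wild type (limma, adjusted p = 0.00305). Relative to the young libraries labelled Trem1-/-, which averaged 31.1 ± 15.5, the log2 difference was 1.80 ± 0.58 and did not pass (limma, adjusted p = 0.114), though DESeq2 gave 0.0287. No dependence of the age difference on the label was detected (-0.87 ± 0.81 on the log2 scale, limma, adjusted p = 0.670). Within an age, the libraries labelled Trem1-/- differed from wild type by 0.19 ± 0.58 in aged and by 1.06 ± 0.58 in young mice on the log2 scale (limma, adjusted p = 0.949 and 0.519).

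The other contractile genes were not found at levels to match. Myh11, the smooth muscle myosin heavy chain, had 0, 0 and 36.1 normalized counts in the aged libraries labelled Trem1-/- and 0, 7.54 and 0.803 in aged wild type. The young libraries had 0.851, 0 and 0 where labelled Trem1-/- and 5.6, 0 and 0.874 in wild type, so that a single aged library held 24 of the 44 reads of the table. Tagln, which encodes the actin-binding protein transgelin, had 5.6, 16.2 and 0 in the aged libraries labelled Trem1-/-, 2.22, 0 and 5.62 in aged wild type, 6.81, 0 and 0 in the young libraries labelled Trem1-/- and 9.33, 0 and 0.874 in young wild type. Neither gene followed Acta2 across libraries: the 3 aged wild type libraries held 72.7 to 108 normalized counts of Acta2 and at most 7.54 of Myh11. Tagln is uncertain on its own account, since its 1988 exon bases overlap exons of 2 genes on the opposite strand, Gm48529 and Pcsk7. The 2 overlaps add up to 1349 bases, and a base lying in exons of both genes was counted in each. Of the 50-base stretches of Tagln, 58.3% are also found in another gene, while the strandedness of the counting was not stated. In the aging libraries Gm48529 had at most 39.7 and Pcsk7 626 to 965 normalized counts, where Tagln had at most 16.2.

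The promoters of Acta2 and Flt1 are shown because these genes had the largest differences of the 10, Acta2 among the aging groups and Flt1 among those of the 5XFAD table. Of the 10 genes, 5 had a promoter entry in the RefSeq table used (GRCm38.p6), and both sequences run 5′ to 3′ on the minus strand, with 250 bases before and 50 after the annotated start. Capitals mark CArG boxes, the elements bound by serum response factor in genes of the contractile apparatus, in Acta2 (chr19:34255324-34255623), and the palindromic cyclic AMP response element TGACGTCA in Flt1 (chr5:147725962-147726261).
Acta2: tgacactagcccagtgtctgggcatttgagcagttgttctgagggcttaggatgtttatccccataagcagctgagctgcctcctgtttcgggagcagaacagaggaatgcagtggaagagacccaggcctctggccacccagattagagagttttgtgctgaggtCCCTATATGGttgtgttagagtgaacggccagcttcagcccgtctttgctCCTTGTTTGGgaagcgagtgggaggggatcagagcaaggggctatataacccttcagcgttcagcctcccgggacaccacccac
Flt1: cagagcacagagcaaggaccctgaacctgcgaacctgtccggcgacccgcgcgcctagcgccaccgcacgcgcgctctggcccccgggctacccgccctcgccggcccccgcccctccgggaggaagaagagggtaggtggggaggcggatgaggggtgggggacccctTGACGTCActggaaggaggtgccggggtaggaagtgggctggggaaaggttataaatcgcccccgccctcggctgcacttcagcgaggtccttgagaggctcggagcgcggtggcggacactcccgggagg
The 2 boxes of Acta2 begin 84 and 34 bases before the start of the RefSeq entry, and each has at most 1 mismatch in the 6 core bases. These distances hold for that start only. In the GENCODE M21 annotation Acta2 starts further upstream, at 34255590 on the minus strand, and both boxes lie inside the gene. At least 1 such box was found in 9.98% and at least 2 in 0.822% of 32851 promoters of the same length, on either strand. The element of Flt1 begins 81 bases before the start, and 1.79% of promoters hold one. Neither motif was found in this window of Cldn5, Rgs5 or Vtn.

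**Figure D3:**
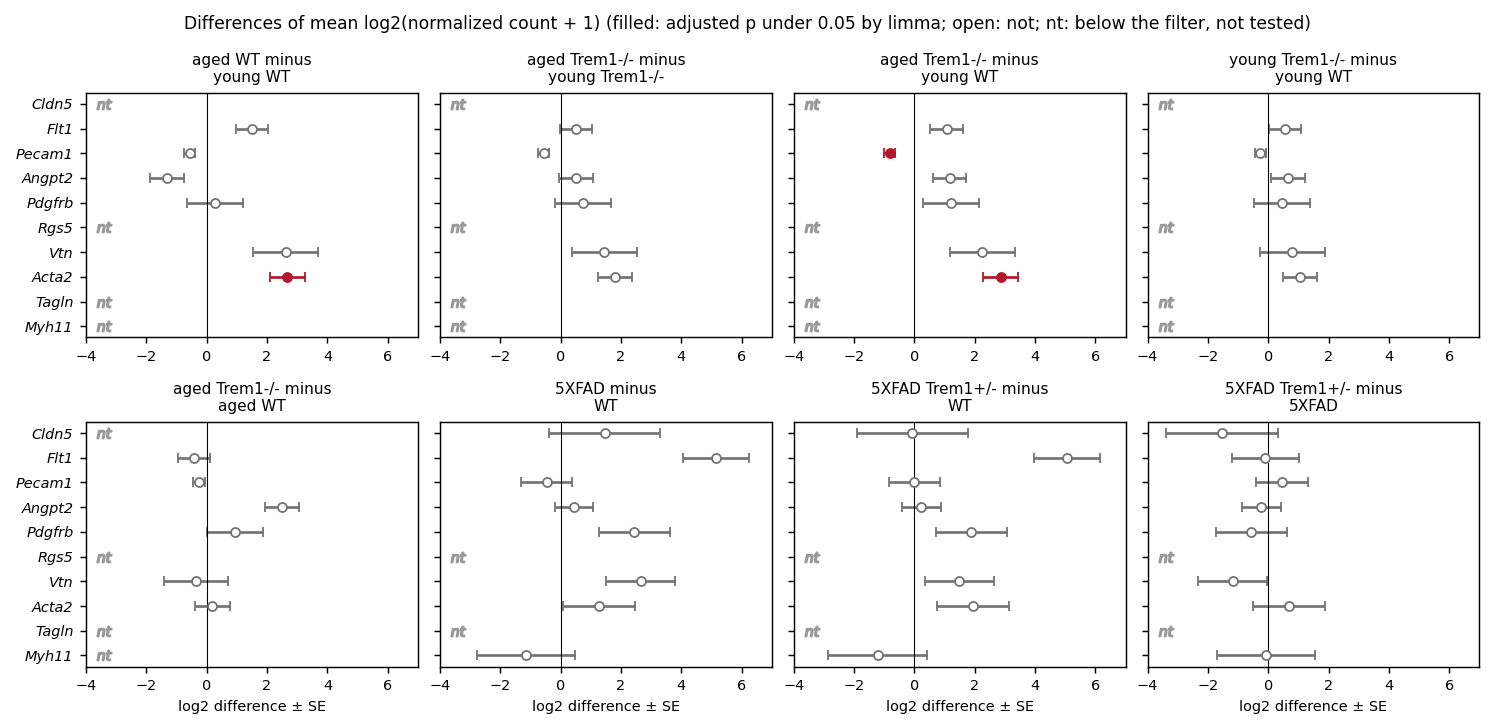
Difference in mean log2(normalized count + 1) and its standard error for each tested gene in 8 comparisons, the group named first minus the group named second (filled: called by limma; open: not called; nt: not tested). Filled points are Acta2 at 2.67 in aged against young wild type, and Acta2 at 2.86 and Pecam1 at -0.82 in the aged libraries labelled Trem1-/- against young wild type.

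In the 5XFAD table none of the 8 tested members was called by limma at the settings above, though Flt1 was called at other settings. The largest difference was that of Flt1, higher in all 6 libraries of both 5XFAD groups than in wild type. The count was 0 of 8 in 5XFAD compared with wild type, against 1.98% of all 17025 genes tested, and 0 of 8 in the 5XFAD libraries labelled Trem1+/- compared with wild type, against 2.78%. These comparisons share the wild type libraries. Between the 5XFAD libraries labelled Trem1+/- and 5XFAD, limma called 0 of 8 members and 0% of all genes, 883 genes had an unadjusted p under 0.05, edgeR called 0 genes and DESeq2 called 16. For the untested Rgs5 and Tagln the adjusted p by limma without the filter was 0.681 or higher.

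Flt1 had 373, 456 and 513 normalized counts in the 5XFAD libraries labelled Trem1+/-, 326, 884 and 366 in 5XFAD, and 1.10, 19.9 and 53.5 in wild type. The groups with 5XFAD overlapped with each other and lay far above wild type, whose first library held a single Flt1 read. Flt1 averaged 525 ± 311 in 5XFAD and 24.8 ± 26.6 in wild type (SD, n = 3 each). The log2 difference of 5.14 ± 1.10 missed the threshold by limma (adjusted p = 0.0727), while DESeq2 called it (adjusted p = 0.000659) and edgeR gave 0.0638. With a pseudocount of 5 limma called it (adjusted p = 0.0128), as it did without the filter on low genes (0.0285). In the 5XFAD libraries labelled Trem1+/- Flt1 averaged 447 ± 70.2, a log2 difference of 5.05 ± 1.10 from wild type (limma, adjusted p = 0.0642; DESeq2, 0.00124; edgeR, 0.0567). There limma gave an adjusted p of 0.0101 with a pseudocount of 5, 0.0273 without the filter and 0.0408 with only genes at a mean of at least 50 tested. Without the first wild type library the differences were 3.81 and 3.72 on the log2 scale with adjusted p of 0.000438 and 0.000506, and without the second wild type library 5.47 and 5.38, with 0.210 and 0.182. Without replicate 3 of wild type they were 6.16 and 6.07 with adjusted p of 0.0106 and 0.00798. The 5XFAD libraries labelled Trem1+/- and 5XFAD differed by -0.09 ± 1.10 on the log2 scale (limma, adjusted p = 0.996). In both 5XFAD groups Flt1 was lowest in the first library, the one with the highest choroid plexus markers, and without that library its log2 difference from wild type was 5.41 in 5XFAD and 5.18 in the libraries labelled Trem1+/- (limma, adjusted p = 0.137 and 0.136). The other libraries of both 5XFAD groups also exceeded wild type in the summed choroid plexus markers, at 15200 to 31196 against at most 6646. The part of the choroid plexus in the Flt1 difference was not tested.

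The other endothelial genes varied several-fold within groups. Pecam1 had 1673, 1334 and 334 normalized counts in the 5XFAD libraries labelled Trem1+/-, 1645, 629.5 and 277 in 5XFAD, and 1226, 826 and 739.5 in wild type. It spanned 5.01-fold within the Trem1+/- group and 5.94-fold within 5XFAD, against 1.66-fold in wild type, with replicate 1 highest and replicate 3 lowest in each group. The log2 difference was -0.46 ± 0.85 between 5XFAD and wild type and 0.46 ± 0.85 between the libraries labelled Trem1+/- and 5XFAD (limma, adjusted p = 0.859 and 0.979). Angpt2 had 98.3, 56.0 and 80.4 in the 5XFAD libraries labelled Trem1+/-, 40.1, 225 and 77.6 in 5XFAD, and 38.5, 161 and 44.5 in wild type, with all groups overlapping (limma, adjusted p 0.801 or higher). Cldn5 had 0, 4.12 and 8.61 in the 5XFAD libraries labelled Trem1+/-, 20.1, 0 and 54.7 in 5XFAD, and 1.10, 25.8 and 0 in wild type, where single libraries carried most of its 126 reads.

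**Figure D4:**
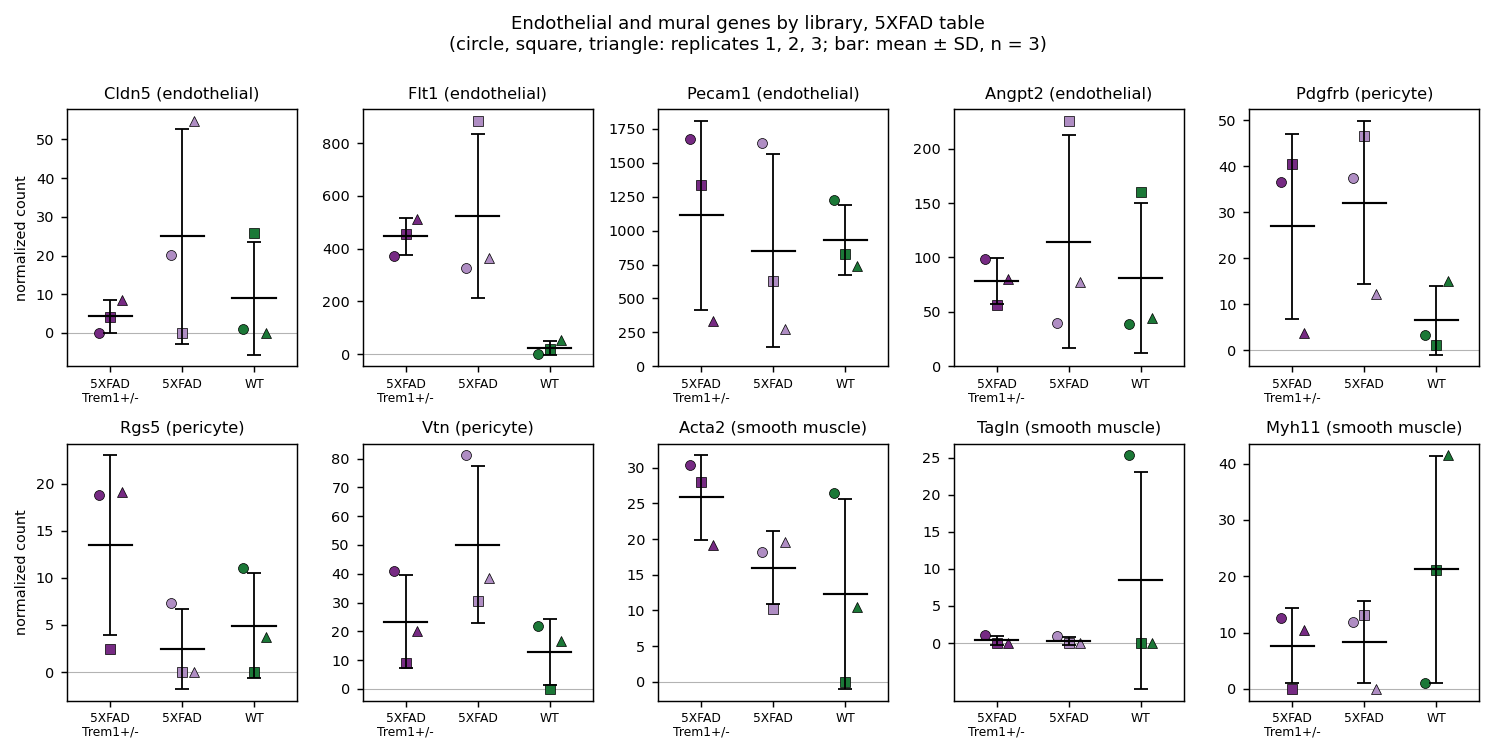
Normalized counts of the 10 genes in each library of the 5XFAD table, by group (symbols: replicates 1 to 3; bars: mean ± SD, n = 3). Flt1 lies between 326 and 884 in the 6 libraries with 5XFAD and at most at 53.5 in wild type, and Vtn at 30.5 or more in 5XFAD and at most at 22.0 in wild type, while no other gene separates these groups.

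Of the pericyte genes, Vtn had 40.8, 9.06 and 20.1 normalized counts in the 5XFAD libraries labelled Trem1+/-, 81.2, 30.5 and 38.4 in 5XFAD, and 22.0, 0 and 16.6 in wild type. The 5XFAD group lay above wild type and the Trem1+/- group overlapped with both. The log2 difference of 5XFAD from wild type was 2.66 ± 1.14 (limma, adjusted p = 0.274). Pdgfrb had 36.6, 40.4 and 3.83 in the 5XFAD libraries labelled Trem1+/-, 37.4, 46.5 and 12.3 in 5XFAD and 3.30, 1.17 and 15.1 in wild type, and replicate 3 of both 5XFAD groups fell within the wild type range. Its log2 difference of 5XFAD from wild type was 2.44 ± 1.18 (limma, adjusted p = 0.336). Rgs5 stayed at or below 19.1 normalized counts in every library.

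The smooth muscle genes gave no parallel to the aging table. Acta2 had 30.3, 28.0 and 19.1 normalized counts in the 5XFAD libraries labelled Trem1+/-, 18.2, 10.2 and 19.6 in 5XFAD, and 26.4, 0 and 10.6 in wild type. All groups overlapped, and its log2 difference was 1.27 ± 1.19 between 5XFAD and wild type and 1.95 ± 1.19 between the libraries labelled Trem1+/- and wild type (limma, adjusted p = 0.665 and 0.444). Myh11 had 12.5, 0 and 10.5 in the 5XFAD libraries labelled Trem1+/-, 11.9, 13.1 and 0 in 5XFAD, and 1.10, 21.1 and 41.5 in wild type. Tagln was highest in the first wild type library, which held 23 of its 25 reads.

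Counts of members whose groups of 3 and 3 libraries did not overlap are given with the share of all tested genes that did so. In the aging table these were 4 of 6 in aged against young wild type (26.2% of all genes), 4 of 6 in the aged libraries labelled Trem1-/- against young wild type (23.1%), 2 of 6 in the aged against the young libraries labelled Trem1-/- (21.2%), 2 of 6 in the aged libraries labelled Trem1-/- against aged wild type (12.2%) and 0 of 6 in the young libraries labelled Trem1-/- against young wild type (20.4%). In the 5XFAD table they were 2 of 8 in 5XFAD against wild type (17.3%), 1 of 8 in the libraries labelled Trem1+/- against wild type (25.5%) and 0 of 8 between the 5XFAD groups (11.9%). With so few members these shares are descriptions. The members were not all highest in the same libraries: in each table the 10 genes peaked in 7 different libraries. The median log2 difference of the tested members was 0.89 in aged against young wild type, beside -0.01 for all genes tested, and 1.37 in 5XFAD against wild type, beside 0.00 for all genes. These medians are descriptions too. In the first comparison 4 members lay above 0 and 2 below, and in the second 6 above and 2 below. In the 5XFAD table Cldn5 reached the filter only through its 5XFAD mean of 24.9, against 8.96 in wild type and 4.24 in the libraries labelled Trem1+/-. Myh11 reached it only through its wild type mean of 21.2, against 8.31 in 5XFAD and 7.69 in the libraries labelled Trem1+/-. Both genes are among the 8 tested members counted here, so their directions are no evidence of a change.

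Further vascular genes were read from lists of 30 endothelial, 14 pericyte, 15 smooth muscle and 12 vascular fibroblast genes, chosen without the 10 above. Many were too low to be tested, and few of those tested changed. Among the aging libraries 15 endothelial, 5 pericyte, 7 smooth muscle and 4 fibroblast genes were tested, and 17, 7, 9 and 4 for the 5XFAD samples. The endothelial genes of the list differed widely in level, and the examples given here were chosen after their values were seen. Emcn, Ly6c1 and Sox17 had at most 6.78 normalized counts in any library, and Esm1 was at 0 in all 21. By contrast, Cdh5, the cadherin of endothelial junctions, was found in every library, with a median of 56.9 normalized counts over the aging and 42.2 over the 5XFAD libraries. Kdr, the VEGF receptor 2, had medians of 220 and 239, Plvap, a component of endothelial fenestrae, of 40.6 and 17.3, and Ramp2, a subunit of the adrenomedullin receptor, of 33.6 and 38.4, also with no library at 0. Genes of the endothelial list that other cells also express were high, with Cd34, a sialomucin, at a median of 2263 normalized counts over the aging libraries and Eng, a coreceptor for TGF-beta, at a median of 2168.

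In aged against young wild type 1 of 15 endothelial genes and 1 of 7 smooth muscle genes rose, 1 of 4 fibroblast genes fell, and no pericyte gene was called. With 8.67% of all genes called in that comparison, single calls in lists of these sizes are read as values of those genes and not as a change of the lists. The endothelial gene was Slco1c1, a transporter of thyroid hormone at the blood-brain barrier that the choroid plexus also expresses, with 323, 178 and 317 normalized counts in aged and 38.2, 23.0 and 79.5 in young wild type (log2 difference 2.64 ± 0.52, limma, adjusted p = 0.00230). The smooth muscle gene was Cald1, the actin-binding caldesmon, with 408, 226 and 345 in aged and 53.2, 204 and 128 in young wild type (1.5 ± 0.37, adjusted p = 0.0123). The fibroblast gene was Col15a1, a basement membrane collagen, with 1120, 1548 and 1412 in aged and 1754, 1995 and 1988 in young wild type. It fell by 0.50 ± 0.14 on the log2 scale (limma, adjusted p = 0.0287), while the median log2 difference of the 4 tested fibroblast genes was 1.84. Of the untested fibroblast genes, Lum and Dpt had at most 3 reads in every aging library. Slco1c1 and Cald1 also rose in the aged libraries labelled Trem1-/- relative to the young ones with that label (log2 differences 2.42 ± 0.52 and 2.24 ± 0.37, limma, adjusted p = 0.0187 and 0.00300) and relative to young wild type (2.43 ± 0.52 and 1.82 ± 0.37, adjusted p = 0.00619 and 0.00369), comparisons in which 1.71% and 6.67% of all genes were called. Cspg4, which encodes the NG2 proteoglycan of pericytes and oligodendrocyte precursors, had 20.5, 56.0 and 39.1 in the aged libraries labelled Trem1-/-, against 2.55, 0 and 0 in the young ones (4.59 ± 0.93, limma, adjusted p = 0.0108). Its values in aged wild type, 22.2, 43.9 and 52.2, and in young wild type, 9.33, 23.0 and 13.1, overlapped. No gene of these lists was called in the comparisons of Trem1 label within an age or in the test of whether the age difference depended on the label.

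In the 5XFAD table Cspg4 rose in both groups, with 75.3, 218 and 165 normalized counts in the libraries labelled Trem1+/-, 145, 88.7 and 219 in 5XFAD, and 2.20, 0 and 22.6 in wild type. Its log2 difference from wild type was 5.07 ± 0.92 in 5XFAD and 5.05 ± 0.92 in the libraries labelled Trem1+/- (limma, adjusted p = 0.00938 and 0.00670), making it 1 of 7 pericyte genes called in each, beside 1.98% and 2.78% of all genes. Of 17 endothelial genes 2 rose in each of these comparisons, Slco1c1 and Cd34. Cd34 averaged 4178 ± 247 in the libraries labelled Trem1+/-, 4182 ± 110.1 in 5XFAD and 2864 ± 135 in wild type (SD, n = 3 each), a log2 difference of 0.54 ± 0.11 and of 0.55 ± 0.11 from wild type (limma, adjusted p = 0.0100 and 0.0140). Slco1c1 had 610, 112 and 133 in the libraries labelled Trem1+/-, 450, 122 and 171 in 5XFAD and 33.0, 14.1 and 3.02 in wild type. Its highest library in each 5XFAD group was the one with the most choroid plexus RNA. No smooth muscle or fibroblast gene was called in this table, and none of any vascular list between the 5XFAD groups.

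Ligands and receptors of the angiopoietin, VEGF and PDGF systems formed a list of 17 genes, which holds Angpt2, Flt1 and Pdgfrb among them and of which 11 were tested in each table. The 3 genes named here besides those above were chosen after their values were seen. Vegfa, the main VEGF ligand, rose in aged wild type (153, 136 and 161 normalized counts, against 30.8, 77.6 and 63.8 in young wild type, log2 difference 1.47 ± 0.40, limma, adjusted p = 0.0204) and was the 1 gene of 11 called there, beside 8.67% of all genes. In the aged libraries labelled Trem1-/- against young wild type Vegfa rose by 1.58 ± 0.40 and Pdgfb, the ligand of Pdgfrb, fell by 0.52 ± 0.11 on the log2 scale (limma, adjusted p = 0.0153 and 0.00514). Pdgfb was high, at 2094 ± 84.5 normalized counts in these aged libraries and 2993 ± 81.9 in young wild type (SD, n = 3 each). Nrp1, a coreceptor for VEGF, was the 1 gene of 11 that rose in 5XFAD against wild type (0.51 ± 0.12, limma, adjusted p = 0.0398) and in the 5XFAD libraries labelled Trem1+/- against wild type (0.63 ± 0.12, adjusted p = 0.00878), beside 1.98% and 2.78% of all genes. Its means were also high, at 4511 ± 425 in the libraries labelled Trem1+/-, 4143 ± 430 in 5XFAD and 2906 ± 292 in wild type (SD, n = 3 each). Which cells the Pdgfb and Nrp1 reads came from was not tested. No gene of the list was called in the remaining 4 pairwise comparisons or in the test of whether age and label combined.

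In wild type, where Acta2 rose with age, so did markers of neutrophils, monocytes and the choroid plexus, in the numbers given here. Of all genes tested, limma called 8.67% in either direction in aged against young wild type. It called 1.71% in the aged against the young libraries labelled Trem1-/-. The 15 neutrophil genes summed to 68955 to 159551 normalized counts in the aged libraries labelled Trem1-/- and 82865 to 149757 in aged wild type, against 38674 to 77763 in the young libraries labelled Trem1-/- and 17460 to 26209 in young wild type, and 14 of 15 were called by limma as higher in aged wild type relative to young. The 12 monocyte genes summed to 18180 to 34859 in aged wild type, against 2508 to 5182 in young wild type, with 11 of 12 called higher, and to 17343 to 21622 in the aged and 14880 to 38110 in the young libraries labelled Trem1-/-. The 8 choroid plexus genes summed to 31501 to 41295 in the aged libraries labelled Trem1-/- and 27605 to 45380 in aged wild type, against 2467 to 15015 in the young libraries labelled Trem1-/- and 6170 to 15243 in young wild type, with 3 of 8 called higher in aged wild type. In the aged against the young libraries labelled Trem1-/- limma called 1 of 15 neutrophil, 0 of 12 monocyte and 2 of 8 choroid plexus genes higher, and the neutrophil and monocyte sums of these groups overlapped while the choroid plexus sums did not. In the young libraries labelled Trem1-/- against young wild type limma called 5 of 15 neutrophil, 7 of 12 monocyte and 0 of 8 choroid plexus genes higher, beside 2.58% of all genes. All genes of these 3 lists exceeded 3 reads in at least 1 library. The part of these cells in the Acta2, Slco1c1, Cald1, Cspg4, Vegfa and Trem1 results was not tested.

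In the 5XFAD table the choroid plexus sum was 18515 to 104313 in the libraries labelled Trem1+/- and 15200 to 82704 in 5XFAD, against 2381 to 6646 in wild type. Its genes were called in 2 of 8 cases in the libraries labelled Trem1+/- and in 1 of 8 in 5XFAD, each compared with wild type. In these comparisons limma called 2.78% and 1.98% of all genes. The neutrophil and monocyte sums overlapped between all 3 groups, at 22397 to 33120 and 2962 to 6179 in the libraries labelled Trem1+/-, 21746 to 31231 and 2136 to 8915 in 5XFAD and 14307 to 57793 and 981 to 8062 in wild type, with 0 of 15 and 0 of 12 genes called in any comparison. The sum of the 8 astrocyte genes was 4555 to 5405 in the libraries labelled Trem1+/- and 4202 to 6314 in 5XFAD, against 3151 to 4130 in wild type, with 1 and 2 of 8 called higher. The sum of the 9 neuronal genes was 273 to 346 in the libraries labelled Trem1+/- and 305 to 1585 in 5XFAD, against 140 to 256 in wild type, with 0 of 8 tested genes called. The part of these cells in the Flt1, Slco1c1, Cspg4, Cd34 and Nrp1 results was not tested.

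**Figure D5:**
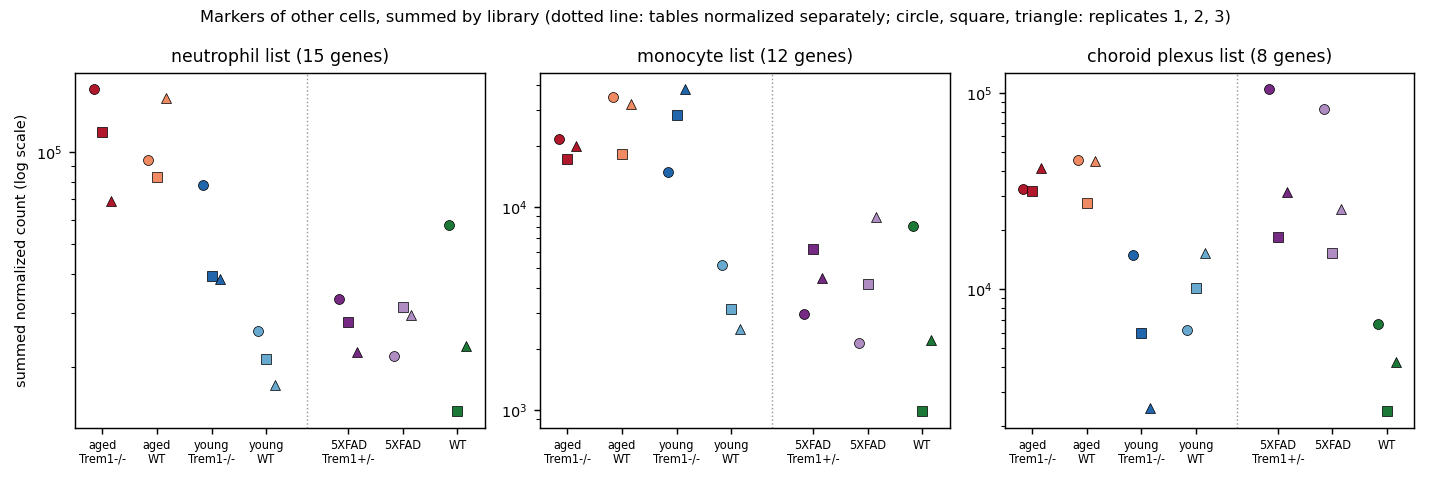
Summed normalized counts (log scale) of markers of neutrophils, monocytes and the choroid plexus in each library, by group, with the separately normalized tables on either side of the dotted line (symbols: replicates 1 to 3). The choroid plexus sum is 27605 or more in all 6 aged libraries and at most 15243 in the young ones, and 15200 or more in all 6 libraries with 5XFAD against at most 6646 in wild type.

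As a description of shared patterns, the 3 genes with a mean of at least 50 whose centred log2 profile was closest to that of Acta2 were Ildr2, Id1 and H2-Q10 in the aging table, with root mean square differences of 0.40, 0.45 and 0.48 over 12 libraries, where the spread of Acta2 itself was 1.29 log2 units. In the 5XFAD table they were Slc25a24, Cxcr4 and Cd177, at 0.35, 0.36 and 0.43 over 9 libraries, with a spread of Acta2 of 1.45. For Cldn5 the closest were Tas1r3, Diablo and Zfp346 in the aging table, at 0.58 to 0.64 beside its own spread of 0.85, and Kif14, Ckap2l and Gm7480 in the 5XFAD table, at 1.43 to 1.45 beside 2.13. The Cldn5 profile of the aging table rests on 9 reads.

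The authors' deposited table for aging compared young wild type with the aged libraries labelled Trem1-/-, with a positive value meaning higher in young wild type. For Acta2 the authors' deposited table gave a log2 fold change of -2.73 (SE 0.53, adjusted p = 2.20e-05) and for Pecam1 of 0.83 (SE 0.19, adjusted p = 0.000838), and these 2 were the members under 0.05 in it. The authors' deposited table for 5XFAD, in which a positive value means higher in wild type than in 5XFAD, held 1 member under 0.05, Flt1, with a log2 fold change of -4.39 (SE 0.98, adjusted p = 0.000762).

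Positions below are from GENCODE M21 on GRCm38. Angpt2 (chromosome 8, 18690263 to 18741562, minus strand) lies inside Mcph1, which runs on the plus strand, and shares 0 exon bases with it. Mcph1 averaged 188 ± 56.2 normalized counts in the aged libraries labelled Trem1-/- and 133 ± 18.2 in aged wild type. The part of Mcph1 reads in the Angpt2 values was not tested. Pdgfrb (chromosome 18, 61045150 to 61085061, plus strand) ends 15536 bases before Csf1r, a microglial receptor gene on the same strand, which had 59621 or more reads in every aging library, where Pdgfrb had at most 27. Acta2 (chromosome 19, 34241090 to 34255590, minus strand) shares 0.326% of its 50-base stretches with other genes, among them Actg1. Flt1 (chromosome 5, 147561604 to 147726011, minus strand), Pecam1 (chromosome 11, 106654217 to 106750628, minus strand) and Cldn5 (chromosome 16, 18776847 to 18778262, plus strand) overlap no other annotated gene.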

How the data were processed

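Per the labels' protocols, the RNeasy mini plus kit gave the RNA and the NEBNext Ultra RNA kit the libraries. Per the submitters' processing notes the authors used fastp, HISAT2 2.0.5, featureCounts 1.5.0-p3, DESeq2 1.20.0 and the GRCm38 build. Strandedness and annotation release are not given in the sources used here. The deposited values per library are a signal, namely counts over a library size factor: divided by the value of 1 read, 99.9996% (aging) and 99.9985% (5XFAD) were whole within 0.05 read, and these recovered reads gave depths and the count models. The deposited tables also hold the authors' log2 fold changes with their standard errors, Wald statistics (a score), p-values and adjusted p-values.

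The 10 genes, the gene lists, the comparisons and the rule for named genes were chosen with earlier results of these data known. The rule named all 10 genes, the called genes of the vascular lists (up to 4 per list and comparison), the 3 profiles nearest to Cldn5 and Acta2, and Trem1. For the main test, log2(normalized count + 1) of genes with a mean of at least 10 was fitted by limma 3.58.1 with its trend and robust options (R 4.3.3), each table alone with its groups together, with Benjamini-Hochberg adjustment over 16086 (aging) or 17025 (5XFAD) genes. It was checked on simulated counts, with changes placed only in genes at a mean of at least 50. That check does not show how the test performs for lower genes or for genes that spread more. Alternatives were pseudocounts of 0.5 and 5, no filter or a mean of 50, limma without trend and robust, only the groups compared, a replicate block, edgeR 4.0.16 (TMM) and DESeq2 1.42.0 on recovered reads, and leaving out each library. No 2 libraries of a group were duplicates (chi-square per degree of freedom 12.7 or more). Vascular, neutrophil, monocyte, choroid plexus and microglial lists are described, as are astrocytes and neurons in 5XFAD; the lists of platelets, erythrocytes, astrocytes, neurons and oligodendrocytes gave 0 to 2 called genes each in any comparison.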

Additional observations from a re-analysis of the deposited data

How the results depend on the processing

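Of 897 log2 differences of single genes under the alternatives, 838 kept their direction and their side of the threshold, 39 turned round, 19 passed the threshold where the main test did not and 1 lost it; the cause was not tested. Acta2 in both aged groups against young wild type stayed called under all 15 alternatives each. In aged against young wild type, 2 members in place of 1 were called with a filter at a mean of 50 and by DESeq2, and 1 to 2 when a library was left out. In the aged libraries labelled Trem1-/-, DESeq2 called 1 member against aged wild type and 1 against the young libraries labelled Trem1-/-, and limma without trend and robust called 1 against young wild type in place of 2. In 5XFAD and in the libraries labelled Trem1+/-, each against wild type, 1 member in place of 0 was called with a pseudocount of 5, without a filter, with the replicate block and by DESeq2, the second also with a filter at a mean of 50, and 0 to 1 when a library was left out. That member was Flt1 in each case.

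Signs turned for Vtn in young libraries labelled Trem1-/- against young wild type (edgeR -0.29, DESeq2 -0.28, leaving out a library -0.57 to 2.19), Pecam1 in the age by label test (edgeR -0.031, DESeq2 -0.021, leaving out a library -0.18 to 0.13), and, in the libraries labelled Trem1+/- against wild type, Pecam1 (pseudocount 5 1.26e-05, edgeR 0.27, DESeq2 0.26, leaving out a library -0.44 to 0.72), Angpt2 (edgeR -0.037, DESeq2 -0.050, -0.15 to 0.87) and Cldn5 (pseudocount 0.5 0.000469, leaving out a library -1.03 to 1.34). Leaving out a library alone turned Pdgfrb (-0.0020 to 0.82) in aged against young wild type, Pdgfrb (-0.084 to 1.16) in the young label comparison, Vtn (-0.73 to 0.12) in the aged one, and Pdgfrb (-0.24 to 1.01) and Vtn (-2.55 to 0.21) in the age by label test. In 5XFAD against wild type it turned Pecam1 (-1.12 to 0.16), Angpt2 (-0.22 to 1.09), Acta2 (-0.12 to 2.27) and Myh11 (-2.44 to 0.10). Between the 5XFAD groups it turned Flt1 (-0.36 to 0.36), Pecam1 (-0.17 to 1.18), Angpt2 (-0.79 to 0.44), Pdgfrb (-1.13 to 0.45) and Myh11 (-1.32 to 1.14). None of these was called in the main test.

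The labels do not say that replicate numbers pair the libraries, and not every pair correlated above 0.1: residual correlations of same-numbered libraries ran between -0.14 and 0.099 in the aging table and between -0.033 and 0.20 in the 5XFAD table, where 7 of 9 libraries were closest to one of their own number, a hint from the data and not from the design. With the replicate block the adjusted p of Flt1 was 0.0214 in 5XFAD and 0.0186 in the libraries labelled Trem1+/-, against wild type, and no other call of the 10 genes changed. Low depth limits Cldn5, Rgs5, Tagln and Myh11, with 9 to 47 reads each over the 12 aging libraries.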
